A study of Mus musculus with 6 samples.

Results

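The lower part of glycolysis, from aldolase to pyruvate kinase, and the A subunit of lactate dehydrogenase were followed across 6 libraries of microglia in 10 genes: Aldoa, Aldoc, Tpi1, Gapdh, Pgk1, Pgam1, Eno1, Eno2, Pkm and Ldha. These genes were chosen by name, 1 or a pair of isozymes for each step, and no measured value is part of the rule. Of the 26789 genes in the table, 18007 had a mean of at least 10 normalized counts and were tested, and all 10 of 10 members were among them. The table also held 32 annotated copies of the members, 31 of Gapdh and the single copy Eno1b of Eno1, of which 8 passed the same filter.

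Microglia came from the rostral NST, the hindbrain nucleus that receives the taste nerves, of C57Bl/6 mice at P15. E3–E12 diet mice were exposed to a low-sodium diet through their mothers from E3 to E12 and to standard chow afterward, and controls were on standard chow throughout. No transgene or deletion was named for either group. Each group had 3 libraries, described as 3 independent replicates with 6 mice in each, pooled from littermates. A library is thus a pool that stands for a single litter and not for a single animal. The isolation of the cells is described differently in the sources, as CD11b magnetic sorting in one and as laser microdissection in the other. The read length also differs between them, 50 bases in one and longer in the other, and the shares of 50-base windows given below were not measured for longer windows.

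Aldolase splits fructose bisphosphate into the triose phosphates, which triose phosphate isomerase (Tpi1) interconverts. Gapdh and phosphoglycerate kinase (Pgk1), phosphoglycerate mutase (Pgam1), enolase and pyruvate kinase (Pkm) then carry the triose to pyruvate with a net gain of ATP, and lactate dehydrogenase reduces pyruvate to lactate, which restores the NAD+ that Gapdh uses. Several of these steps have isozymes with preferred cell types in the brain. Aldoa and Eno1 are the widely expressed forms, Aldoc (zebrin II) is prominent in astrocytes and Purkinje cells, and Eno2 is the neuron-specific enolase. Activated microglia are known to raise glycolysis and lactate production, and many glycolytic genes are targets of the hypoxia factor HIF-1.

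The normalized counts summed to between 9407141 and 17204618 per library, and no gene passed the adjusted p of 0.1 in the whole table (limma, 0 of 18007 genes, 327 with an unadjusted p under 0.05, smallest adjusted p = 0.225). Control replicate 2 stood apart from the others. It had the highest total and 10640 genes listed at 0, compared with 3459 to 7135 in the other 5 libraries. The 14 microglial markers were all present in every library and summed to between 121497 and 579940 normalized counts in controls and between 114430 and 386988 in E3–E12 diet mice, highest in control replicate 2. All 14 of them had a lower mean log2 level in E3–E12 diet mice, with a median log2 fold change of -0.26, and none passed the test. Their log2 fold changes ran from -0.71 (C1qc) to -0.00 (Aif1), and 54.4% of all tested genes had a higher mean log2 level. This count includes control replicate 2 and was not repeated without it. The part of the microglial markers in the results of the glycolytic genes was not tested. Control replicate 2 also had the lowest sum of 11 astrocyte markers. The log2 fold changes of the members are therefore plotted below with and without this library. The lists of markers and other pathway genes were read only with it. Fewer cells of a type and less RNA per cell cannot be told apart in such bulk libraries.

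Across the pathway, 9 of the 10 genes had a higher mean log2 level in E3–E12 diet mice and 1, Pgam1, a lower one, but none passed the test (0 of 10 at an adjusted p of 0.1, with 0% of all tested genes passing, and 0 of 10 at an unadjusted p of 0.05, with 1.82% of all tested genes). Of all tested genes, 54.4% had a higher mean log2 level in E3–E12 diet mice. The number of higher members was 8 with quantile normalization, 7 with array weights and 9 when control replicate 2 was left out. Of all tested genes, 49.5%, 50.3% and 49.6% were higher in these settings. The median log2 fold change of the 10 genes was 0.46, beside 0.087 for all tested genes, and without control replicate 2 these medians were 0.34 and -0.0052. Leaving out control replicate 1 gave a median of 0.78 for the 10 genes, and leaving out E3–E12 diet replicate 2 gave 0.83. Without E3–E12 diet replicate 3, 7 of the 10 were higher, beside 54.9% of all tested genes. Aldoa and Aldoc were the 2 of 10 members whose libraries did not overlap between groups, both higher in E3–E12 diet mice, where 2.99% of all tested genes were higher without overlap. No member was lower without overlap (0 of 10, beside 2.91% of all tested genes), and 5.90% of all tested genes separated the groups in either direction. The limma adjusted p was 0.999 for each of the 10 genes, and the median standard error of their log2 fold changes was 0.62.

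**Figure D1:**
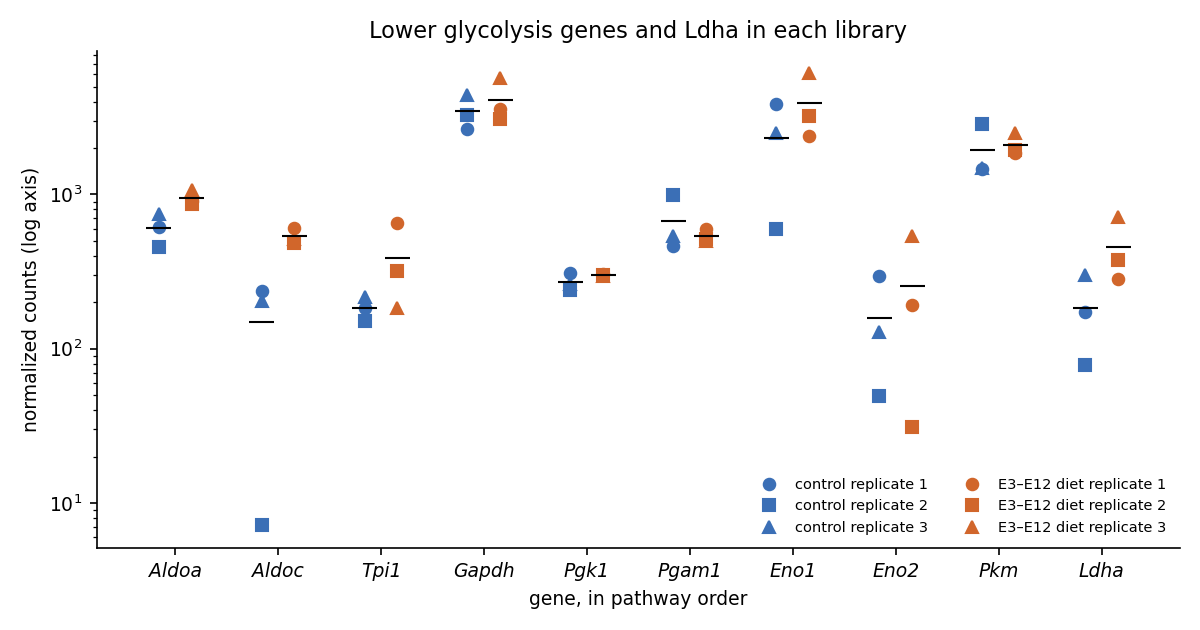
Normalized counts (log axis) of the 10 genes in pathway order for each of the 3 control libraries (blue) and 3 E3–E12 diet libraries (orange), with the symbol giving the replicate and the black line the group mean. Aldoa and Aldoc are the genes whose groups do not overlap, Aldoc lies at 7.17 in control replicate 2, and the points of Pgk1 lie between 242 and 310.

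At the aldolase step, both genes separated the libraries of the groups. Aldoa (ENSMUSG00000030695, chr7:126795234-126800751, minus strand, GRCm38) measured 615, 458 and 749 normalized counts in the controls, in replicate order throughout, against 903, 865 and 1069.9 in E3–E12 diet mice. Every E3–E12 diet library was above every control. The means were 607 ± 146 in controls and 946 ± 109 in E3–E12 diet mice (SD, n = 3 libraries each, exact permutation test, two-sided, p = 0.1). This p is the smallest that 3 libraries against 3 can give. The log2 fold change was 0.66 with a standard error of 0.54, and it ranged from 0.47 to 0.83 with single libraries left out.

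Aldoc (ENSMUSG00000017390, chr11:78322968-78327781, plus strand, GRCm38) had 236, 7.17 and 203 normalized counts in the controls, against 607, 486 and 516 in E3–E12 diet mice. The groups did not overlap, and the E3–E12 diet libraries lay close together while control replicate 2 was far below the other controls. The means were 149 ± 124 and 536 ± 63 (SD, n = 3 libraries each, exact permutation test, two-sided, p = 0.1). Its log2 fold change of 2.87 had a standard error of 1.33 and the smallest unadjusted p of the members (0.0709 from limma, adjusted p = 0.999). Without control replicate 2 the log2 fold change was 1.28 with a standard error of 0.49. The study itself lists Aldoc, Eno1 and the glucose transporter Slc2a1 as higher in E3–E12 diet mice, with DESeq2 and an adjusted p below 0.1. None of them passed that threshold here with limma on the deposited values. The log2 fold change the study lists was larger than the one here for Eno1 and smaller for Aldoc. The direction of all of these genes here comes from the same libraries and is not independent evidence.

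The value of the low library rests on few reads. Low values in control replicate 2 gathered at multiples of about 1.98 normalized counts, an estimate of what 1 read is worth there, so 7.17 corresponds to only a handful of reads. The corresponding step was between 0.542 and 1.13 normalized counts in the other 5 libraries.

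The 2 aldolase genes differ enough in sequence for most reads to be told apart. Of the 50-base windows of the principal transcript, 13.9% of those of Aldoa and 0% of those of Aldoc also occur in another annotated gene. Their coding sequences were identical at 75.7% of 1089 aligned bases, and the longest identical run was 26 bases. The stretch below is coding bases 451 to 540, in exon 5 of 9 of both genes. It was taken for lying near the middle of the coding sequence, and 17 of its 90 bases differ. It lies at chr7:126796595-126796684 (minus strand) in Aldoa and at chr11:78325120-78325209 (plus strand) in Aldoc on GRCm38. Capitals mark the bases that differ between the genes.
Aldoa: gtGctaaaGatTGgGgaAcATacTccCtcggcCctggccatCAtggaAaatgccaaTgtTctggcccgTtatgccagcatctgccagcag
Aldoc: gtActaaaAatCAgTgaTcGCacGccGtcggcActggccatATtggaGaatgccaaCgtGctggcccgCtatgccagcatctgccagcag

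The ratio of the aldolase isozymes also separated the groups. Within each library the log2 ratio of Aldoc to Aldoa was -1.38, -5.81 and -1.88 in the controls, against -0.57, -0.83 and -1.05 in E3–E12 diet mice. Every E3–E12 diet library had the higher ratio, and the difference was 2.21 (standard error 1.41, exact permutation test, two-sided, p = 0.1, adjusted p = 0.3 over 3 isozyme ratios). The difference was 0.81 without control replicate 2. Expressed per kb of transcript, Aldoc made up 17.2%, 0.842% and 12.8% of the aldolase A and C level in the controls, against 26.7%, 23.3% and 20.7% in E3–E12 diet mice. Aldoa thus remained the larger part of the pair in every library.

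Because Aldoc is abundant in astrocytes, the astrocyte markers are given beside it. Of 11 markers, 10 had a higher mean log2 level in E3–E12 diet mice, as did 54.4% of all tested genes. Their median log2 fold change was 0.86, and 0 of 11 passed the adjusted or the unadjusted threshold or separated the groups. This count and median include control replicate 2 and were not computed without it. The summed level of the 11 markers ranged from 2696.6 to 14297 normalized counts in controls and from 6817.5 to 16622 in E3–E12 diet mice. The lowest sum was that of control replicate 2, where Gfap, Aldh1l1 and Gjb6 were listed at 0. Aldh1l1, a folate enzyme used to mark astrocytes, had 49.1, 0 and 43.1 normalized counts in the controls, against 156, 132 and 30.7 in E3–E12 diet mice, and its groups overlapped. Its log2 fold change was 2.74 with a standard error of 1.63, and that of Gjb6, a gap junction protein, was 2.89 with a standard error of 1.67, beside 2.87 for Aldoc. The log2 fold changes of Aldh1l1 and Gjb6 were the largest among the 11 markers, and both genes were listed at 0 in control replicate 2. Other markers were not lowest in that library, with 1420.1 normalized counts of Slc1a3, the highest control, 96.7 of S100b, 102 of Sox9 and 299 of Slc4a4. The log2 fold change was 0.25 for Slc1a3, 0.37 for S100b, -0.06 for Sox9 and 0.43 for Slc4a4. Aqp4, the astrocyte water channel, had 451, 23.9 and 187 normalized counts in the controls, against 1463, 576 and 160 in E3–E12 diet mice. Slc1a2, the main astrocyte glutamate transporter, had 7637, 211 and 4185 in the controls, against 5683, 2782 and 2949 in E3–E12 diet mice. The part of astrocyte RNA in the Aldoc result was not tested.

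**Figure D2:**
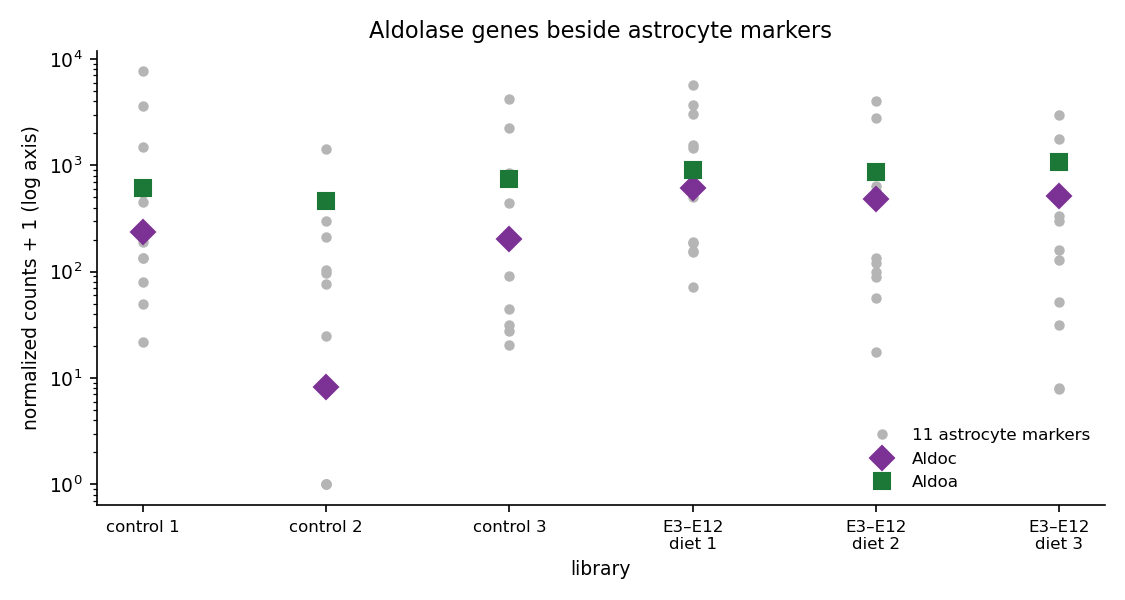
Normalized counts plus 1 (log axis) of Aldoc (purple diamonds), Aldoa (green squares) and 11 astrocyte markers (grey points) in each of the 6 libraries. In control replicate 2 Aldoc is at 7.17 normalized counts and 3 astrocyte markers, drawn at the same place, are at 0, while Aldoa is at 458 there.

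Tpi1 (ENSMUSG00000023456, chr6:124810586-124814296, minus strand), the isomerase that joins both products of aldolase, had 183, 151 and 217 normalized counts in the controls, against 654, 320 and 184 in E3–E12 diet mice. E3–E12 diet replicates 1 and 2 were above every control and replicate 3 lay among the controls. The means were 184 ± 32.9 and 386 ± 242 (SD, n = 3 libraries each), and the log2 fold change was 0.89 with a standard error of 0.67 (exact permutation test, two-sided, p = 0.2). It ranged from 0.41 to 1.33 with single libraries left out.

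Gapdh (ENSMUSG00000057666, chr6:125161715-125166467, minus strand), which oxidizes glyceraldehyde phosphate, had 2663, 3274 and 4445 normalized counts in the controls, against 3576, 3108 and 5686 in E3–E12 diet mice. The groups overlapped and replicate 3 was the highest of each group. Its log2 fold change, 0.24, lay within 1 standard error (0.58) of 0, and it was -0.02 without E3–E12 diet replicate 3.

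Gapdh has many processed copies, and 82.5% of the 50-base windows of its transcript occur in other annotated genes. Of 47 annotated copies that share at least 20% of these windows, 31 were in the table, and together they held 596, 39.3 and 1318 normalized counts in the controls, against 805, 359 and 327 in E3–E12 diet mice. The split between gene and copies is therefore uncertain. Gm10359 and Gm12671 had the same value in every library, 0 except for 360.8 in control replicate 3, and Gm3839 had 627 normalized counts in E3–E12 diet replicate 1 but 7.91 to 98.9 in the other 5 libraries. With its copies added, Gapdh differed by 0.18 on the log2 scale (standard error 0.58). These copies were named after their values were seen. The testis form Gapdhs had between 1.99 and 59.1 normalized counts.

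Pgk1 (ENSMUSG00000062070, chrX:106187100-106203699, plus strand), which makes the first ATP of the pathway, was nearly level. It had 310, 242 and 264 normalized counts in the controls, against 304, 301 and 296 in E3–E12 diet mice, and the highest value was 1.28 times the lowest. The standard deviation of its log2 level over the 6 libraries was 0.14, beside a median of 1.05 for all tested genes, and only 12 of the 18007 tested genes (0.0666%) had a smaller one. Its log2 fold change was 0.15 with a standard error of 0.52. That standard error, which limma draws toward those of other genes, is larger than the spread of its own libraries. Of its windows, 68% occur in other annotated genes, and of the 2 annotated copies with at least 20% of them neither was in the table used here.

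Pgam1 (ENSMUSG00000011752, chr19:41911923-41918660, plus strand), the mutase ahead of enolase, had 465, 999 and 541 normalized counts in the controls, against 599, 518 and 501 in E3–E12 diet mice. The 999 of control replicate 2 stood above the other 5 libraries. Its log2 fold change was -0.23 with a standard error of 0.58 and became 0.10 without that library, so the only member with a lower mean in E3–E12 diet mice rested on 1 control. Of its windows, 41.5% occur in other annotated genes. Pgam2, the muscle form, showed the same high library, with values of 46.7, 189 and 44.5 in the controls, against 42.9, 91.2 and 12.3 in E3–E12 diet mice.

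**Figure D3:**
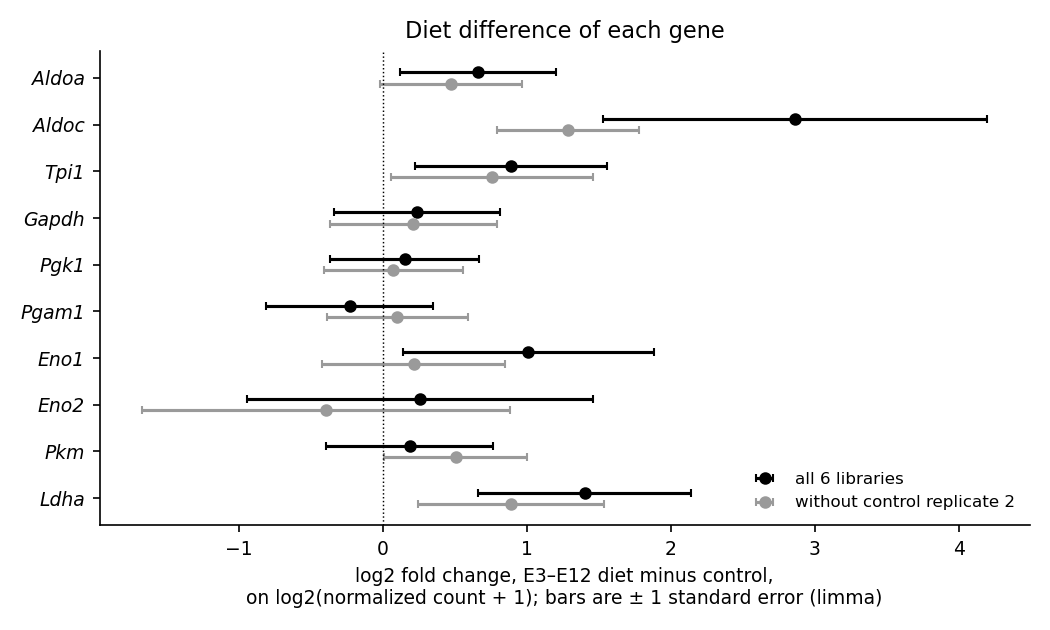
Log2 fold change (E3–E12 diet minus control, on log2 of the normalized count plus 1) of the 10 genes with 1 standard error from limma, for all 6 libraries (black) and without control replicate 2 (grey). Aldoc moves from 2.87 to 1.28, Eno1 from 1.01 to 0.21, Pgam1 from -0.23 to 0.10 and Eno2 from 0.25 to -0.40.

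Eno1, the widely expressed enolase, varied more between libraries than its neighbors Pgam1 and Pkm. Eno1 (ENSMUSG00000063524, chr4:150236721-150248879, plus strand) had 3871, 595 and 2511 normalized counts in the controls, against 2385, 3243 and 6100.1 in E3–E12 diet mice. Control replicate 2 was the lowest and the groups overlapped (exact permutation test, two-sided, p = 0.5). The log2 fold change was 1.01 with a standard error of 0.87, and it was 0.21 with a standard error of 0.64 without control replicate 2.

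The low Eno1 value in that library went with a high value of its copy. Eno1b (ENSMUSG00000059040, annotated as protein coding on chromosome 18, plus strand) had 0, 3818 and 3.25 normalized counts in the controls, against 1834, 0 and 942 in E3–E12 diet mice. It was thus at or near 0 in 3 libraries and at 942 or more in the other 3, with each group holding both kinds. Of the windows of the Eno1 transcript 72.2% occur in other annotated genes and 70.5% in Eno1b, so a read lying wholly in such a window cannot be assigned to 1 gene by its sequence. Counted per kb, Eno1b made up 87.9% of the pair in control replicate 2, 46.5% in E3–E12 diet replicate 1 and 14.9% in E3–E12 diet replicate 3, and at most 0.146% in the other 3 libraries.

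When the genes were added together in each library, the spread narrowed. Eno1 with Eno1b had 3871, 4413 and 2515 normalized counts in the controls, against 4219, 3243 and 7042 in E3–E12 diet mice. The highest library was then 2.8 times the lowest, compared with 10.2 times for Eno1 alone, and control replicate 2 no longer stood below the others. The log2 fold change of the sum was 0.39 with a standard error of 0.60 (exact permutation test, two-sided, p = 0.5), less than that of Eno1 alone. The sum was chosen after the data were seen.

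**Figure D4:**
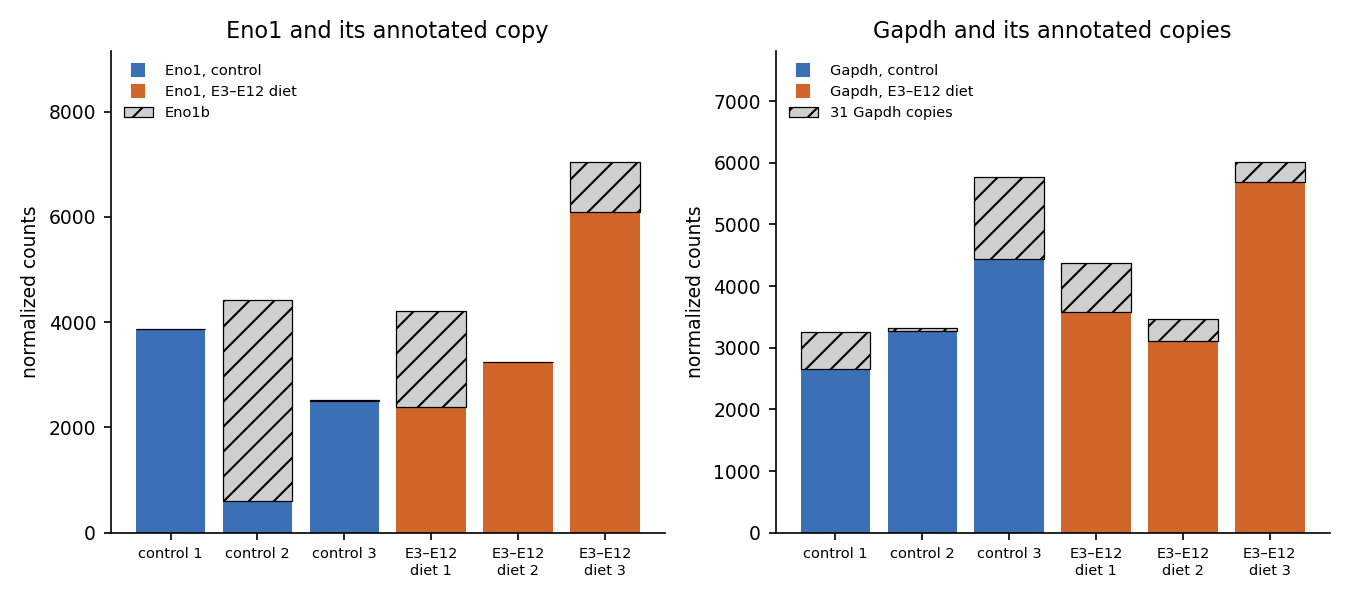
Normalized counts per library of Eno1 (left) and Gapdh (right) as solid bars, blue for controls and orange for E3–E12 diet mice, with the counts of Eno1b or of 31 Gapdh copies stacked on top (hatched). Eno1b holds 3818 of the 4413 counts in control replicate 2 and 1834 of the 4219 in E3–E12 diet replicate 1, and none in control replicate 1 or E3–E12 diet replicate 2.

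Eno2 (ENSMUSG00000004267, chr6:124760053-124769673, minus strand), the neuronal enolase, had 297, 49.7 and 129 normalized counts in the controls, against 193, 31 and 536 in E3–E12 diet mice. The highest and the lowest value were both in the E3–E12 diet group. Its log2 fold change of 0.25 had a standard error of 1.20, and it ranged from -0.67 to 1.37 with single libraries left out. Only 0.255% of its windows occur in other annotated genes.

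Relative to Eno1 alone, the log2 ratio of Eno2 was -3.70, -3.56 and -4.27 in the controls, against -3.62, -6.66 and -3.51 in E3–E12 diet mice. The groups overlapped, with a difference of -0.75 and a standard error of 1.06 (exact permutation test, two-sided, p = 0.9, adjusted p = 0.9 over 3 ratios). With Eno1b added to Eno1 the difference was -0.13 (exact permutation p = 0.7). Eno2 was a minor part of the enolase level per kb in every library, at 5.27%, 0.728% and 3.6% in the controls, against 3.05%, 0.689% and 5.15% in E3–E12 diet mice. Of 12 neuronal markers, 7 had a higher and 5 a lower mean log2 level in E3–E12 diet mice. In control replicate 2, 4 of them, Rbfox3, Syt1, Stmn2 and Slc32a1, were listed at 0. Map2 (1486.1), Nefm (380) and Gad1 (493) were instead highest of all libraries there. The sum of the 12 markers ranged from 1423.5 to 3560.4 normalized counts in controls and from 1442.6 to 4092.4 in E3–E12 diet mice. It was 2687.5 in control replicate 2. The part of neuronal RNA in the Eno2 values was not tested. Eno3, the muscle enolase, had 101, 6.49 and 125 in the controls, against 102, 464 and 127 in E3–E12 diet mice.

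Pkm (ENSMUSG00000032294, chr9:59656368-59679375, plus strand) encodes both the M1 and the M2 form of pyruvate kinase by alternative splicing, and a value per gene does not separate them. It had 1465, 2858 and 1478 normalized counts in the controls, against 1856, 1950 and 2513 in E3–E12 diet mice. Control replicate 2 was the highest of all libraries, and the other controls were below every E3–E12 diet library. The log2 fold change was 0.19 with a standard error of 0.58, and it was 0.50 with a standard error of 0.50 without control replicate 2, a setting in which its groups did not overlap and 6.66% of all tested genes were higher without overlap. Of its windows, 34.4% occur in other annotated genes. Pklr, the liver and red cell form, was listed at 0 in 3 libraries and reached at most 32.4.

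Ldha (ENSMUSG00000063229, chr7:46841475-46855627, plus strand), the subunit that favors lactate formation, had 173, 77.9 and 301 normalized counts in the controls, against 285, 374 and 713 in E3–E12 diet mice. The groups overlapped only through control replicate 3, which was slightly above E3–E12 diet replicate 1. The means were 184 ± 112 and 457 ± 226 (SD, n = 3 libraries each, exact permutation test, two-sided, p = 0.2). The log2 fold change was 1.40 with a standard error of 0.74 (limma, unadjusted p = 0.102, adjusted p = 0.999), and it was 0.89 with a standard error of 0.65 without control replicate 2.

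Ldhb, the subunit that favors the use of lactate, was the more abundant of the pair. It had 573, 1006 and 999 normalized counts in the controls, against 1086, 1042 and 2177 in E3–E12 diet mice, without overlap (log2 fold change 0.70, standard error 0.62, limma adjusted p = 0.999). Per kb it made up 81.8%, 94.6% and 81.8% of the Ldha and Ldhb level in the controls, against 83.8%, 79.1% and 80.5% in E3–E12 diet mice. The log2 ratio of Ldhb to Ldha differed by -0.70 with a standard error of 0.66 (exact permutation test, two-sided, p = 0.4, adjusted p = 0.6 over 3 ratios). The high ratio was that of control replicate 2 alone, and without this library the difference was -0.05.

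**Figure D5:**
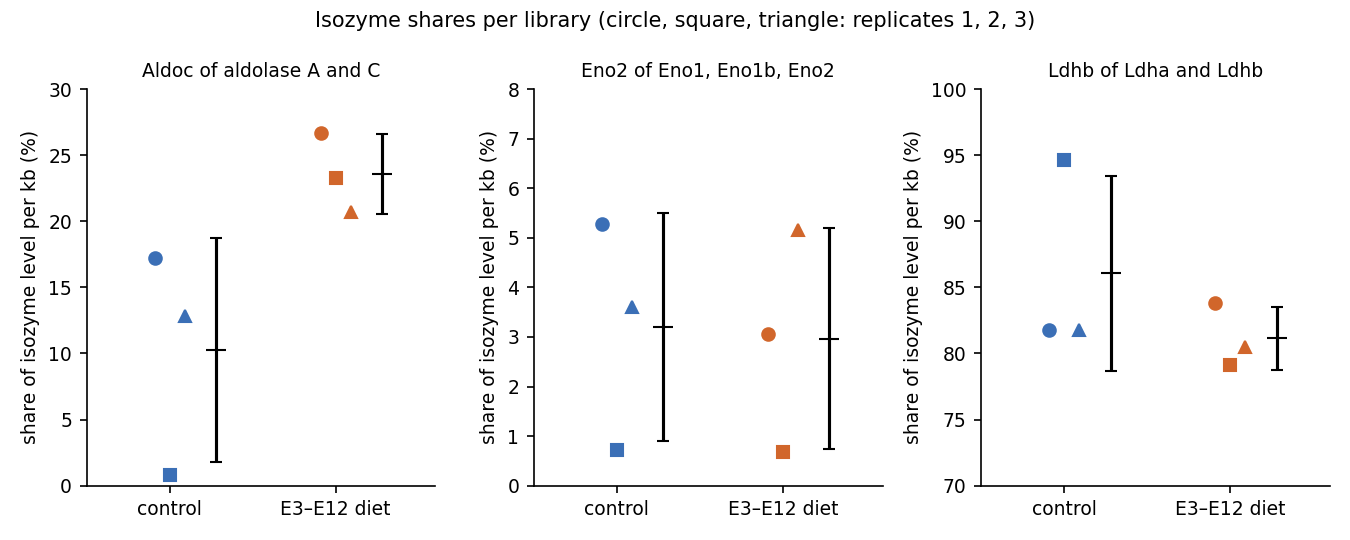
Share of Aldoc, Eno2 and Ldhb in the level of their isozymes per kb of transcript (percent), with 1 point per library (circle, square and triangle for replicates 1, 2 and 3) and the mean with SD (n = 3 libraries) in black. The vertical axes differ in range and that of Ldhb starts at 70. The Aldoc share lies between 20.7% and 26.7% in E3–E12 diet mice and between 0.842% and 17.2% in controls, whereas the groups overlap for Eno2 and Ldhb.

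The promoters of Aldoa, Aldoc and Ldha are shown because these genes had large or separated values and HIF-1 is a known regulator of the pathway. Those of Eno1, with a log2 fold change of 1.01, and Tpi1, with 0.89, are not shown. The sequences are the 250 bases upstream of the start site from RefSeq (GRCm38.p6), at chr7:126799255-126799504 (minus strand) for Aldoa, chr11:78322823-78323072 (plus strand) for Aldoc and chr7:46845554-46845803 (plus strand) for Ldha. Of the RefSeq windows of Ldha, the one holding the most matches was taken, and otherwise the window nearest the start of the principal transcript. Capitals mark ACGTG on either strand (CACGT on the other strand), the core letters of a hypoxia response element, which also lie within the E-box CACGTG.
Aldoa: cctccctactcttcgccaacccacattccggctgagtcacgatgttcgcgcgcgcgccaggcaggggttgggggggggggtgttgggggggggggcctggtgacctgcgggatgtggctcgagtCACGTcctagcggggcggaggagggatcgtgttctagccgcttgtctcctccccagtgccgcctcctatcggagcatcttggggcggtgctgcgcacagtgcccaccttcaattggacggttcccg
Aldoc: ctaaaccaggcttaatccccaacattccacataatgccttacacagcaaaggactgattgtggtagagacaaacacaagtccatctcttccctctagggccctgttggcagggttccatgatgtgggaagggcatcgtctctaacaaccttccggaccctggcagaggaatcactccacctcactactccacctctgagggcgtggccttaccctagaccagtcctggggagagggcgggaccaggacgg
Ldha: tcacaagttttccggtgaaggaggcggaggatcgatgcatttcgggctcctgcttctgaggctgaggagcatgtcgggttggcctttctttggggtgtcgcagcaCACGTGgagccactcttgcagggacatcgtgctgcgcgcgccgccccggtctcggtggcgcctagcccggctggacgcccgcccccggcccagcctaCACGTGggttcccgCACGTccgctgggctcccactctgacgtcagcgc

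The Ldha window, taken for its matches, had 3 separate ones, whose first bases lay 145, 48 and 34 bases upstream of the start site, and a pair of them read CACGTG. The other Ldha window, whose start lies 49 bases from that of the principal transcript, had 0, so these numbers are not compared between genes. Aldoa had 1 match, beginning 126 bases upstream, and Aldoc had 0 in these upstream bases. The Aldoc window starts 105 bases from the start of the principal transcript and had 1 match in its full 300 bases. In RefSeq windows of 300 bases, which add the first transcribed bases, 7 of the 10 members had the motif in at least 1 window (8 of 17 windows). Tpi1, Eno1 and Eno2 had the motif in none of their windows. Of 27025 genes with a window 21.8% had it, and so did 19.6% of 32851 windows. A match is a description of letters and was not tested as a binding site.

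Levels between genes were compared per kb of the principal transcript. Averaged over the 6 libraries, the order of normalized counts per kb was Gapdh (2670.5), Eno1 (1538), Pkm (831), Aldoa (514), Pgam1 (340), Ldha (182), Tpi1 (177), Pgk1 (157), Aldoc (123) and Eno2 (73.7). Each gene down to Pgam1 was above the next in at least 5 of the 6 libraries. From Ldha downward the neighbors changed places, the upper gene being above the next in only 2 or 3 of the 6 libraries, so the order of Ldha, Tpi1, Pgk1, Aldoc and Eno2 was not fixed beyond their spread. In E3–E12 diet mice the level per kb was 192 ± 22.6 for Aldoc and 165 ± 2.02 for Pgk1, and in controls it was 53.3 ± 44.4 and 149 ± 18.8 (SD, n = 3 libraries each).

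The steps on either side of these enzymes were examined through 45 further genes. Of 15 genes for glucose transport and upper glycolysis, all tested, 9 had a higher and 6 a lower mean log2 level in E3–E12 diet mice, with a median log2 fold change of 0.46, and 0 passed the adjusted or unadjusted threshold or separated the groups. Slc2a1, the glucose transporter of endothelium and glia, had 4983, 744 and 6177 normalized counts in the controls, against 4664, 7208 and 11954 in E3–E12 diet mice, lowest in control replicate 2. Hk2, the inducible hexokinase, had 2526, 1304 and 4185 in the controls, against 513, 5103 and 1774 in E3–E12 diet mice, a range that spans both groups.

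Of 19 genes for the fate of pyruvate and lactate, 18 were tested, with 10 higher, 8 lower and a median log2 fold change of 0.33. In 2 of the 18, Ldhb and Pdhx, the groups did not overlap, where 2.99% of all tested genes were higher without overlap. Pdhx, a structural subunit of pyruvate dehydrogenase, had 117, 90.9 and 108 normalized counts in the controls, against 165, 209 and 139 in E3–E12 diet mice (log2 fold change 0.68, standard error 0.54), and was named after its values were seen. Slc16a3, the lactate exporter MCT4, had 1833 in control replicate 2 and between 53.4 and 173 in the other 5 libraries. Of 11 regulators of the hypoxia and Myc pathways, 10 were tested, with 6 higher, 4 lower and a median log2 fold change of 0.21. Hif1a, the HIF-1 alpha subunit, had 1144, 900 and 1060.4 in the controls, against 815, 961 and 1762 in E3–E12 diet mice. Myc had 406, 644 and 868 in the controls, against 661, 1234 and 1635 in E3–E12 diet mice (log2 fold change 0.85, standard error 0.64), with only control replicate 3 above the lowest E3–E12 diet library. None of the genes in these lists passed the unadjusted threshold of 0.05.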

How the data were processed

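RNA was sequenced from microglia in 3 control and 3 E3–E12 diet libraries. The authors deposited normalized counts per gene, a signal that is not whole reads. FastQC, STAR, featureCounts and DESeq2 on GRCm38 are named in the submitters' processing notes without versions. How reads that match several genes, or strands, were counted is not given in the sources used here. The file's name mentions surrogate variables and no source describes their use. Low values fell within 0.05 steps of a whole multiple of a per-library step in only 54.8% to 72.1% of cases, so whole reads were not recovered and the depth behind a value is only approximate.

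The members and lists were chosen with earlier results of these data known. Genes with a mean of at least 10 were compared as log2(normalized count + 1) with limma 3.58.1 (R 4.3.3), two-sided, with Benjamini-Hochberg adjustment over 18007 genes and the study's threshold of 0.1, and fold changes are on that scale, which understates the change of low genes. Single values and isozyme ratios were compared with exact permutation tests (SciPy 1.17.1). The fit was tested on simulated data. Symbols were matched for 26507 of 26789 genes. Shared sequence was measured as 50-base windows of the principal transcript in GENCODE annotation of GRCm38, with at least 20% shared windows defining a copy. Alternatives were other scalings, pseudocounts, filters, limma-trend, array weights, a replicate block, summed copies and leaving out each library. Named were all members, Eno1b, other isozymes (some are not reported here), listed genes beside which a member is read, and pathway genes without overlap and with a log2 fold change of at least 1 in size, of which there were 0. P-values measure the spread between these pooled libraries, each described as a single litter.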

Additional observations from a re-analysis of the deposited data

How the results depend on the processing

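No member passed the adjusted p of 0.1 under any alternative, and the smallest adjusted p of a member was 0.745 (Aldoc with array weights). The unadjusted p of Aldoc ranged down to 0.0255 over the alternatives. Over all genes, 2 passed with quantile normalization, 1 with a mean of at least 50 and 5 with array weights, compared with 0 otherwise, and the cause was not tested. The median log2 fold change of all genes was 0.204 with equal library totals, -0.006 with quantile normalization and 0.087 as deposited. Members higher without overlap numbered 4 with equal library totals, 3 with quantile normalization and 2 as deposited. Of all tested genes, 541 of 18327, 541 of 18007 and 538 of 18007 were higher without overlap in these settings. Genes with an unadjusted p under 0.05 numbered 1205 with array weights, 539 without control replicate 1, 207 with a mean of at least 50 and 327 as deposited. Aldoa, Aldoc, Tpi1, Pgk1, Eno1, Pkm and Ldha kept their direction in all 16 alternatives, but array weights lowered the log2 fold change of Aldoc from 2.87 to 1.46, of Ldha from 1.40 to 0.78, of Tpi1 from 0.89 to 0.49, of Eno1 from 1.01 to 0.61 and of Aldoa from 0.66 to 0.40, while that of Pkm rose from 0.19 to 0.50. The sign turned for Gapdh with array weights (-0.02), for Eno2 with quantile normalization (-0.04) and array weights (-0.15), and with single libraries left out for Gapdh (range -0.02 to 0.43, negative without E3–E12 diet replicate 3), Pgam1 (-0.45 to 0.10, positive without control replicate 2) and Eno2 (-0.67 to 1.37, at -0.40 without control replicate 2, lowest when E3–E12 diet replicate 3 was left out). With single libraries left out, the Eno2 to Eno1 log2 ratio difference ranged from -1.30 to 0.28 (0.28 without E3–E12 diet replicate 2), that of Aldoc to Aldoa from 0.81 to 3.03 and that of Ldhb to Ldha from -1.03 to -0.05. With the replicate number as a block, 0 genes passed (smallest adjusted p = 0.98, 468 with an unadjusted p under 0.05 and 327 without the block). Same-numbered libraries correlated at 0.2596, 0.0348 and 0.1415 in their deviations from group means, which was not over 0.1 in every pair, so the libraries were treated as sharing only a number. Each E3–E12 diet library correlated best with its same-numbered control, whereas control replicate 2 correlated best with E3–E12 diet replicate 3 (0.0869). The alternatives with copies summed were chosen after seeing the data.

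With a median standard error of 0.62 among the members, differences of that size were not detectable in single genes. Exact tests on 3 libraries against 3 cannot go below p = 0.1, and on 3 against 2 not below 0.2. The values of Gapdh, Pgk1 and Eno1 share most of their windows with other annotated genes. Normalized counts without whole reads leave the counting error of low values, such as Aldoc in control replicate 2, unknown.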

Other observations

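Pgk1 and Gapdh are often used to normalize other genes. Among 12 such genes the standard deviation of the log2 level over the 6 libraries was smallest for Pgk1 (0.14) and next for Gapdh (0.394), and it was between 0.648 and 1.25 for the other 10, from Ywhaz to B2m. Of these 12 genes, 5 had a higher and 7 a lower mean log2 level in E3–E12 diet mice, with a median log2 fold change of -0.37, and none separated the groups. B2m, the light chain of MHC class I, had 6399.6 normalized counts in control replicate 1 and 69602 in control replicate 2. Actb had 12234 and 52138 in the same libraries, whereas Pgk1 had 310 and 242.

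Markers of further cell types were present at uneven levels. The 8 endothelial markers summed to between 5308.5 normalized counts, in control replicate 2, and 14952 in controls and to between 9136.8 and 14882 in E3–E12 diet mice, with a median log2 fold change of 1.36 and 5 higher. The 5 choroid plexus markers summed to between 572 and 18942 in controls and between 58 and 40082 in E3–E12 diet mice, and 6 oligodendrocyte markers to between 4993.5 and 42918 and between 5881.7 and 23327. The 5 erythroid markers summed to at most 219. None of these genes passed the unadjusted threshold of 0.05. Their part in the values of the glycolytic genes was not tested.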
